A study of Rattus norvegicus with 6 samples.

Results

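Conjugating enzymes and NRF2-type antioxidant genes were followed in rat liver across 6 diets. The set held the genes of the glutathione S-transferase classes alpha, mu, pi, theta, kappa, omega and zeta, the microsomal glutathione transferases, the UDP-glucuronosyltransferases and the cytosolic sulfotransferases, together with Nqo1, Hmox1, Gclc, Gclm, Txnrd1 and Srxn1. Membership was by gene symbol, over probe sets whose annotation lists a single gene. This gave 43 genes of 14506 named on the arrays, from 44 probe sets of 29214 in all. They were 3 alpha, 8 mu and 6 other glutathione S-transferases, 2 microsomal transferases, 7 Ugt2 genes, 5 Sult1 and 6 other sulfotransferases, and the 6 antioxidant genes. No gene of the Ugt1 or Ugt3 families or of the zeta class had a probe set with a single gene. A probe set whose annotation lists 2 gene entries, both with the symbol Sult1e1, was left out.

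The animals were 30 adult male Wistar rats, 5 per diet, and no group carried a genetic change. The high protein diets were HP (low fat), HP-HS (high sucrose, low fat) and HP-HS-HF (high sucrose, high fat), and the normal protein diets were NP, NP-HS and NP-HS-HF with the same backgrounds. After 10 days on the normal protein diet, each group ate its own diet for about 5 weeks, and livers were taken 2 h after a set meal. For each diet an equal amount of liver RNA per rat went into 1 pool of 5 rats, and each pool was run on 1 array, so no diet has a replicate and the spread between rats is not measured. The labels' source field calls the animals mice, against rat in the organism field and the growth protocol, and they are taken as rats. The 6 arrays had log2 medians that differed by up to 0.033, and pairwise Pearson correlations of 0.9949 to 0.9964. All 9 hepatocyte markers were above the expression threshold, with summed linear values of 84638 to 86554 in the high protein arrays and 84030 to 86056 in the normal protein arrays. Of 10 markers of gut, kidney and pancreas, 5 were below the threshold, and the sum of the 10 was 505 to 548 with high protein and 535 to 543 with normal protein.

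As background, conjugation makes a compound more water soluble, so that it can leave in bile or urine. Glutathione S-transferases attach glutathione to reactive electrophiles, UDP-glucuronosyltransferases attach glucuronic acid to steroids, bilirubin and drugs, and sulfotransferases attach sulfate taken from PAPS. NRF2, the protein of Nfe2l2, is held by KEAP1 and degraded until electrophiles or oxidants modify KEAP1. It then binds antioxidant response elements with small MAF proteins and drives Nqo1, Hmox1, Gclc, Gclm, Txnrd1 and Srxn1, as well as several glutathione S-transferases. Hepatocytes are the main site of most of these enzymes, and the receptors CAR, PXR and AHR also act on many of them.

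Levels are log2 values from RMA (robust multi-array average), the summary of the probes of a probe set, in which 1 unit is a doubling. They are compared between arrays for the same gene and not between genes. Genes with a mean over the 6 arrays above the 30th percentile of all probe sets, log2 5.14, were tested, which kept 39 of the 43. Sult1d1, Sult6b1, Ugt2a1 and Ugt2b7 were below this value on all 6 arrays and were not tested. Gstm6 was below it on 4 arrays and passed through the HP and HP-HS-HF arrays. Since the filter thus kept Gstm6 through arrays where it was high, its values are a description, and shares of members are given over the other 38 genes.

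No member passed the limma test for any of the 4 effects, at a Benjamini-Hochberg adjusted p under 0.05 over 20450 probe sets. For high against normal protein, 0 of 39 members passed, against a background of 0.044 percent of the probe sets tested. For high sucrose against low fat, fat added to high sucrose, and sucrose with fat against low fat, 0 of 39 passed, and the background was 0 percent for each. At an unadjusted p under 0.05, 9 of the 38 members (23.7 percent) stood out for protein, against 8.71 percent of all tested; 5 were higher (background 4.68 percent) and 4 lower (4.03 percent). The numbers were 3 for sucrose (background 3.02 percent), 3 for fat (4.95 percent) and 5 for sucrose with fat (5.18 percent). The median member difference was -0.02 for protein, where the median of all tested was 0.00, and 18 of 38 members lay above 0, against 49.4 percent of all tested. So the set as a whole did not lean to either protein level, and the differences below are those of single genes. With 1 pool per diet, the error of the fit comes from how a difference varies between the levels of the other factor. In limma this error is drawn toward a value shared by all probe sets tested (2 residual degrees of freedom, 4.37 from the prior). A p-value reflects this mixture and not the spread between rats.

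Members still varied between diets. The range over the 6 arrays had a median of 0.28 among the 38 members and 0.25 among all probe sets tested. A range of 1.5-fold or more was seen for 7 of 38 members, against 6.47 percent of all tested: Nqo1, Hmox1, Ugt2a3, Ugt2b, Ugt2b1, Gstm3 and Gsto2. Of these, Gstm3 and Gsto2 were dim, with means of 6.06 and 6.17, below the array medians of 6.22 to 6.25. At the other end, of the tested members, Mgst1, Mgst2, Gstm1, Gsta1 and Sult4a1 stayed within 0.13. Of these, Sult4a1 was dim, with a mean of 6.08. Mgst1, Gstm1 and Gsta1 were bright, with means of 13.17, 12.80 and 12.32, where the highest value on any array was 13.92. Mgst1, a microsomal transferase of the endoplasmic reticulum and mitochondria, had 13.21, 13.15 and 13.12 on the HP, HP-HS and HP-HS-HF arrays, against 13.18, 13.14 and 13.20 on the NP, NP-HS and NP-HS-HF arrays.

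**Figure D1:**
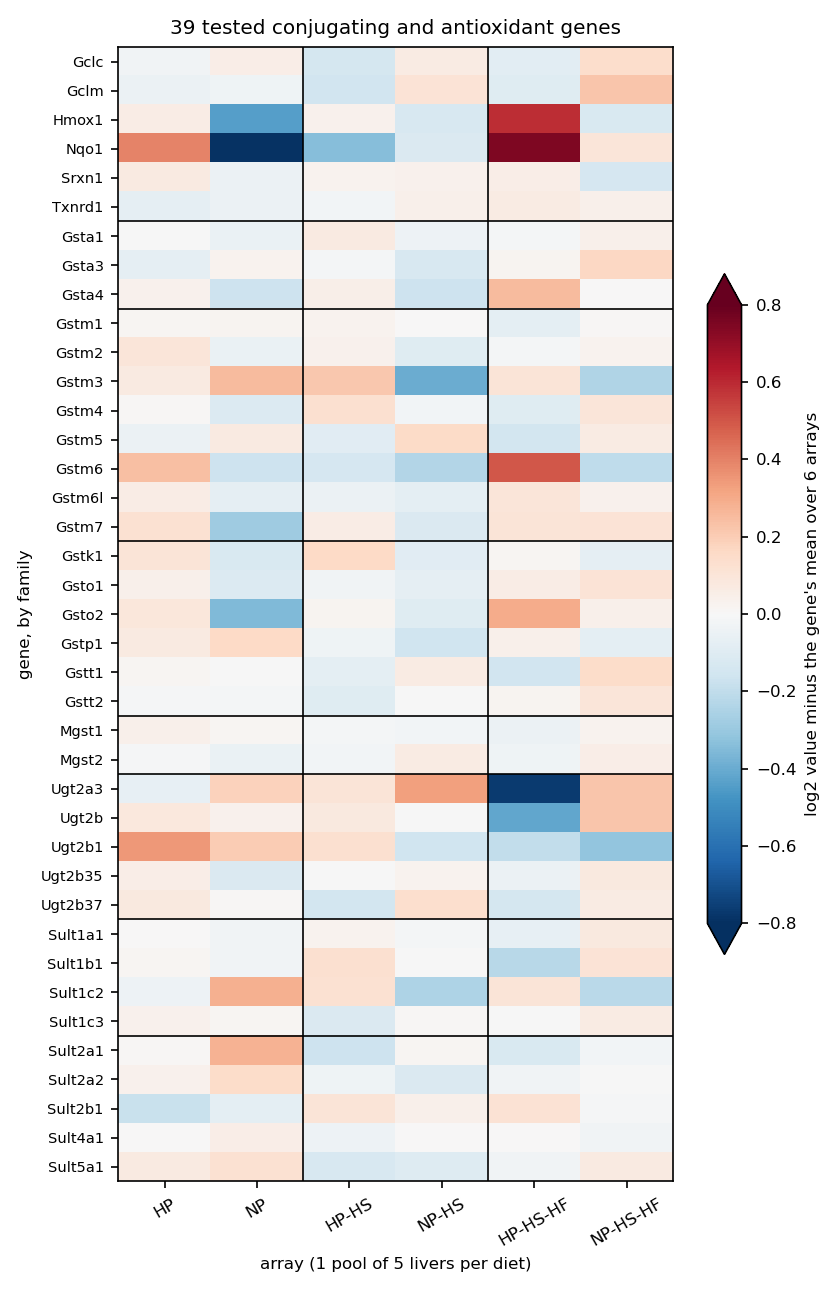
Log2 value of each of the 39 tested genes on each array (columns), as its difference from the gene's own mean over the 6 arrays; genes run down the page by family and black lines part families and diet backgrounds. Nqo1 spans 7.86 on NP to 9.41 on HP-HS-HF, and Ugt2a3 and Ugt2b stand lowest on HP-HS-HF.

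None of the 6 antioxidant genes passed the test, and for protein 3 of them had a fitted difference above 0 and 3 below. For the diet background, the side on which they lay depended on the comparison. With fat added to sucrose at high protein, 6 of 6 lay above 0, by 0.022 to 1.09 (background 50.2 percent above 0), and the fitted fat difference was above 0 for 5 of 6 (48.9 percent). Sucrose with fat against low fat also had 5 of 6 fitted differences above 0 (48.8 percent). With sucrose, 6 of 6 lay above 0 at normal protein, by 0.013 to 0.68 (50.3 percent), and 1 of 6 at high protein (49 percent). For sucrose with fat at high protein, 3 lay above 0 and 3 below. Among the 38 members, 21 lay above 0 for fat at high protein, 23 for sucrose at normal protein and 13 for sucrose at high protein. The fitted difference was above 0 for 24 of the 38 with fat added to sucrose, and for 19 with sucrose with fat. So for sucrose at high protein and for the fitted fat difference, the set as a whole lay to the same side as the antioxidant genes. These comparisons share arrays, and the smallest of the differences were below the 0.033 between array medians. Nqo1, the quinone reductase that is a classic readout of NRF2, varied most of all members, with a range of 1.54. Nqo1 had 9.06, 8.32 and 9.41 on the HP, HP-HS and HP-HS-HF arrays, against 7.86, 8.54 and 8.75 on the NP, NP-HS and NP-HS-HF arrays. The HP-HS-HF array was the highest and the NP array the lowest, and the protein groups overlapped, because HP-HS lay below NP-HS and NP-HS-HF. High protein was 2.29-fold above normal protein on low fat (log2 1.19) and 1.57-fold above on HS-HF (log2 0.65), and 1.17-fold below on HS (log2 -0.23). The fitted protein difference was 0.54 ± 0.240 (SE, 3 pairs of arrays, adjusted p = 0.616). It was 0.21 without either low fat array and 0.92 without either HS array.

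Hmox1, the heme oxygenase that turns heme into biliverdin, carbon monoxide and iron, had the largest moderated t of the members for protein. Hmox1 had 7.51, 7.48 and 8.04 on the HP, HP-HS and HP-HS-HF arrays, against 7.01, 7.32 and 7.33 on the NP, NP-HS and NP-HS-HF arrays. Every high protein array was above every normal protein array. The difference was 0.50 on low fat, 0.16 on HS and 0.71 on HS-HF, and the fitted value was 0.46 ± 0.110 (SE, adjusted p = 0.303). Hmox1 is strongly expressed in Kupffer cells, the macrophages of the liver. Of 12 macrophage markers, 11 were measured, and none of these was below the threshold. The fitted protein difference was above 0 for 11 of 11 (median 0.21), against 49.4 percent of all tested. Of these markers 0 passed the limma test, and 8 had an unadjusted p under 0.05 in it, against 8.71 percent of all tested. Their summed linear values were 4266 to 4896 in the high protein arrays and 3804 to 4168 in the normal protein arrays. For fat added to sucrose 1 of 11 lay above 0 (median -0.19), against 48.9 percent of all tested, and Hmox1 stood at 0.28 ± 0.135 (SE, adjusted p = 0.999). That Hmox1 value was 0.06 without the HP-HS array and 0.50 without the NP-HS array. The part of macrophages in the Hmox1 protein difference was not tested. In whole liver RNA, fewer cells of a type and less RNA per cell cannot be told apart.

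Gclc and Gclm encode the catalytic and the modifier subunit of glutamate-cysteine ligase, the first and rate-limiting step of glutathione synthesis. Their protein differences ran opposite to those of Hmox1. Gclc had 10.66, 10.55 and 10.61 on the HP, HP-HS and HP-HS-HF arrays, against 10.74, 10.75 and 10.83 on the NP, NP-HS and NP-HS-HF arrays. Gclm had 10.43, 10.32 and 10.38 on the HP, HP-HS and HP-HS-HF arrays, against 10.44, 10.58 and 10.70 on the NP, NP-HS and NP-HS-HF arrays. For both subunits every high protein array was below every normal protein array, and Gclm differed by only -0.01 on low fat. The fitted differences were -0.17 ± 0.069 for Gclc (SE, adjusted p = 0.563) and -0.20 ± 0.083 for Gclm (SE, adjusted p = 0.576). Txnrd1, the cytosolic thioredoxin reductase, ranged over 0.14, and Srxn1, the sulfiredoxin that restores overoxidised peroxiredoxins, over 0.21. Their fitted protein differences were -0.02 ± 0.065 and 0.10 ± 0.071.

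**Figure D2:**
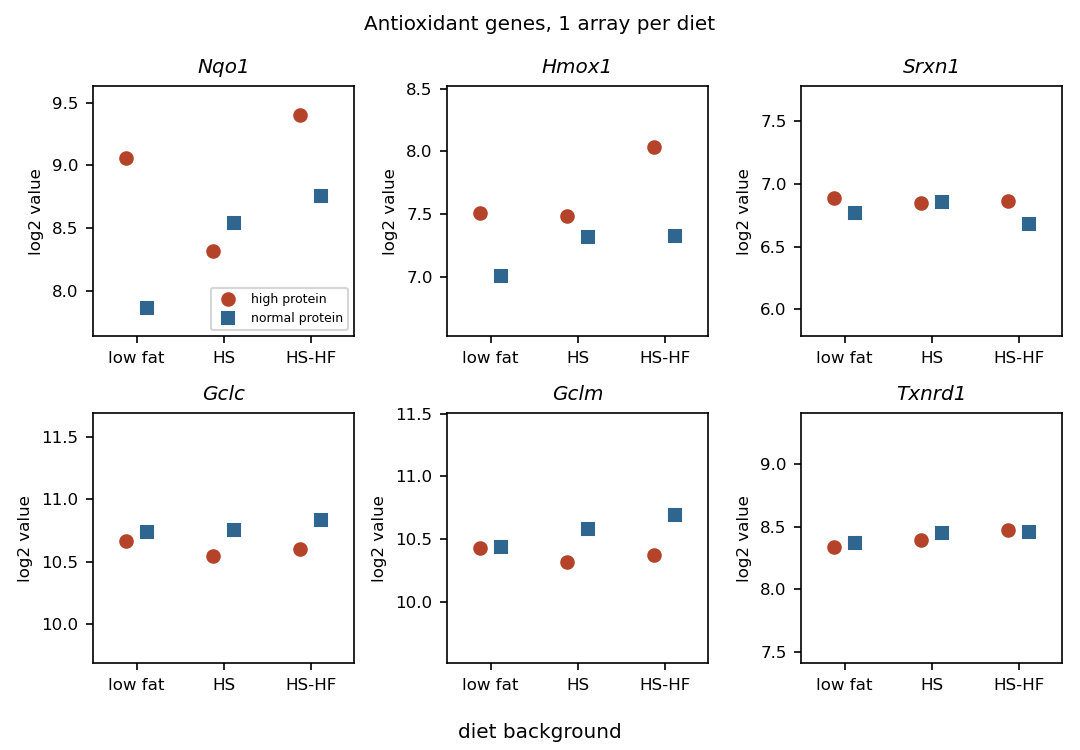
Log2 values of the 6 antioxidant genes by diet background; circles are high protein and squares normal protein, 1 array each, and every panel spans 2 log2 units. Hmox1 is higher with high protein on all 3 backgrounds, Gclc and Gclm are lower on all 3, and Nqo1 is higher on low fat and HS-HF and lower on HS.

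The promoters of Nqo1, Gclm and Gclc are printed because these genes share a known regulator and their fitted protein differences parted. That of Nqo1 was above 0 (0.54), and those of Gclm (-0.20) and Gclc (-0.17) were below 0. With sucrose, and with fat added to sucrose, the differences of these genes had the same sign at each protein level. Each run is the 250 bases before the annotated gene start, from RefSeq on build GRCr8, 5′ to 3′ on the gene's strand. Capitals mark the antioxidant response element TGACNNNGC or the core of the xenobiotic response element, GCGTG, to which AHR binds, on either strand. The windows are chr19:52220268-52220517 on the minus strand for Nqo1, chr2:213031885-213032134 on the plus strand for Gclm and chr8:87510226-87510475 on the plus strand for Gclc.
Nqo1: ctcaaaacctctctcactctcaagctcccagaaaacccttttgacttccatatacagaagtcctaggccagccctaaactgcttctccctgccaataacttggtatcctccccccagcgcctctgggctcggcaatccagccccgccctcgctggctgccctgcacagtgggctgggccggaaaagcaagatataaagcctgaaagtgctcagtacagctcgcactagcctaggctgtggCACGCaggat
Gclm: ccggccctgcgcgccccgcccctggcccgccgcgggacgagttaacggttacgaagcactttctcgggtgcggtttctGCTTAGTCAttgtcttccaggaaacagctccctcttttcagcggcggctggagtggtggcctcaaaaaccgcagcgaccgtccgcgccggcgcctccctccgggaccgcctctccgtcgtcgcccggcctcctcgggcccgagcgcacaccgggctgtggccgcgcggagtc
Gclc: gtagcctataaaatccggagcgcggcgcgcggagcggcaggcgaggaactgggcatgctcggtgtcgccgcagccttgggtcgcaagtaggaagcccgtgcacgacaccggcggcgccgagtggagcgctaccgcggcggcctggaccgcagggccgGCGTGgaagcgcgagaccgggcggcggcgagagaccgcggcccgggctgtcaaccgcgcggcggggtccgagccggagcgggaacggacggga
Gclm held the antioxidant letters on the reverse strand, starting at -172 from the gene start, and Nqo1 and Gclc held the xenobiotic core, starting at -10 and -93. The antioxidant letters stood in 5 of the 36 member windows at hand (Gclm, Gsta3, Gstm5, Gstm7 and Gstp1), which is 13.9 percent, against 10.1 percent of 33469 promoter windows of this length. The xenobiotic core stood in 8 of 36, or 22.2 percent, against 25.9 percent. A match describes the letters in this window only, and elements farther away were not searched.

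Among the glutathione S-transferases, Gsta4 differed most evenly between the protein levels. Gsta4 conjugates 4-hydroxynonenal, an aldehyde made when lipids are oxidised. Gsta4 had 10.03, 10.04 and 10.25 on the HP, HP-HS and HP-HS-HF arrays, against 9.83, 9.83 and 10.00 on the NP, NP-HS and NP-HS-HF arrays. Each high protein array was above each normal protein array. The differences were 0.20, 0.21 and 0.25 on low fat, HS and HS-HF, with a fit of 0.22 ± 0.064 (SE, adjusted p = 0.408). A second, dimmer probe set of Gsta4 had 9.33, 9.43 and 9.51 with high protein, against 9.16, 9.10 and 9.31 with normal protein in the same order of backgrounds, again without overlap. Gsta1 and Gsta3, of the same class, had fitted protein differences of 0.04 and -0.04.

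Gsto2 of the omega class, which reduces dehydroascorbate, had 6.25, 6.19 and 6.47 on the HP, HP-HS and HP-HS-HF arrays, against 5.82, 6.07 and 6.20 on the NP, NP-HS and NP-HS-HF arrays. It was higher with high protein on each background, and the groups overlapped by NP-HS-HF (fit 0.27 ± 0.082 SE, adjusted p = 0.425). Gstk1, the mitochondrial and peroxisomal kappa enzyme, had 11.79, 11.85 and 11.71 on the HP, HP-HS and HP-HS-HF arrays, against 11.57, 11.60 and 11.62 on the NP, NP-HS and NP-HS-HF arrays. These groups did not overlap (fit 0.19 ± 0.069 SE, adjusted p = 0.518). Gstt1, Gstt2, Gstp1 and Gsto1 had fitted protein differences between -0.14 and 0.05, and that of Gstt1, the lowest, was -0.06 without either HS-HF array and -0.22 without either low fat array.

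The mu class lies as a run of neighbouring genes on chromosome 2, in the order Gstm5, Gstm6l, Gstm7, Gstm6, Gstm3, Gstm2, Gstm1 and Gstm4, with 1 gene that is no member between Gstm6 and Gstm3. Mu genes are close copies of each other, so signal could be shared between their probe sets. For protein, 5 of the 7 other than Gstm6 had a fitted difference above 0, against 49.4 percent of all tested, and their median was 0.08. Gstm6 had 5.52, 5.14 and 5.77 on the HP, HP-HS and HP-HS-HF arrays, against 5.10, 5.04 and 5.07 on the NP, NP-HS and NP-HS-HF arrays, below the threshold on 4 of them. Gstm7 had 11.35, 11.28 and 11.33 on the HP, HP-HS and HP-HS-HF arrays, against 10.94, 11.11 and 11.33 on the NP, NP-HS and NP-HS-HF arrays. Its difference was 0.41 on low fat, 0.17 on HS and 0.00 on HS-HF. Gstm5 was lower on each high protein array than on each normal protein array (fit -0.19 ± 0.067 SE, adjusted p = 0.483). Its mean of 5.33 was near the threshold of 5.14.

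Gstm3 had the largest sucrose difference below 0 of the tested members with normal protein. It stood at 6.28 on HP-HS and at 6.13 on HP, a difference of 0.15, and at 5.66 on NP-HS and 6.31 on NP, a difference of -0.65 (1.57-fold lower). The fitted sucrose difference was -0.25 ± 0.178 (SE, adjusted p = 1), and it was above 0 without either normal protein array of the pair. Sult1c2, a sulfotransferase of the 1C family, had a like shape, with 9.47, 9.64 and 9.62 on the HP, HP-HS and HP-HS-HF arrays, against 9.80, 9.27 and 9.30 on the NP, NP-HS and NP-HS-HF arrays. High protein was below normal protein on low fat (-0.33) and above it on HS (0.37) and HS-HF (0.32). Both genes were highest on NP and lowest on NP-HS, and their other values lay between.

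Over the whole set, 3 of the 38 members (7.89 percent) had all 3 high protein arrays above all 3 normal protein arrays, against a background of 7.35 percent. These were Hmox1, Gsta4 and Gstk1. The reverse held for 4 of 38 (10.5 percent), against 7.58 percent: Gclc, Gclm, Gstm5 and Ugt2a3. These shares are near the background. Counted by pair of arrays, a high protein value at least 1.5-fold above normal protein was seen on low fat for 1 member, Nqo1 (background 0.738 percent), and on HS for 1 member, Gstm3 (0.87 percent). On HS-HF it was seen for 2 members, Hmox1 and Nqo1 (0.836 percent), Gstm6 being left out. A value at least 1.5-fold below was seen for 0 members on low fat (0.641 percent), 0 on HS (0.523 percent) and 2 on HS-HF, Ugt2a3 and Ugt2b (0.66 percent). Nqo1 and Hmox1 were also the members whose NP array lay at least 1.2-fold below each other array, as it did for 0.592 percent of all tested.

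**Figure D3:**
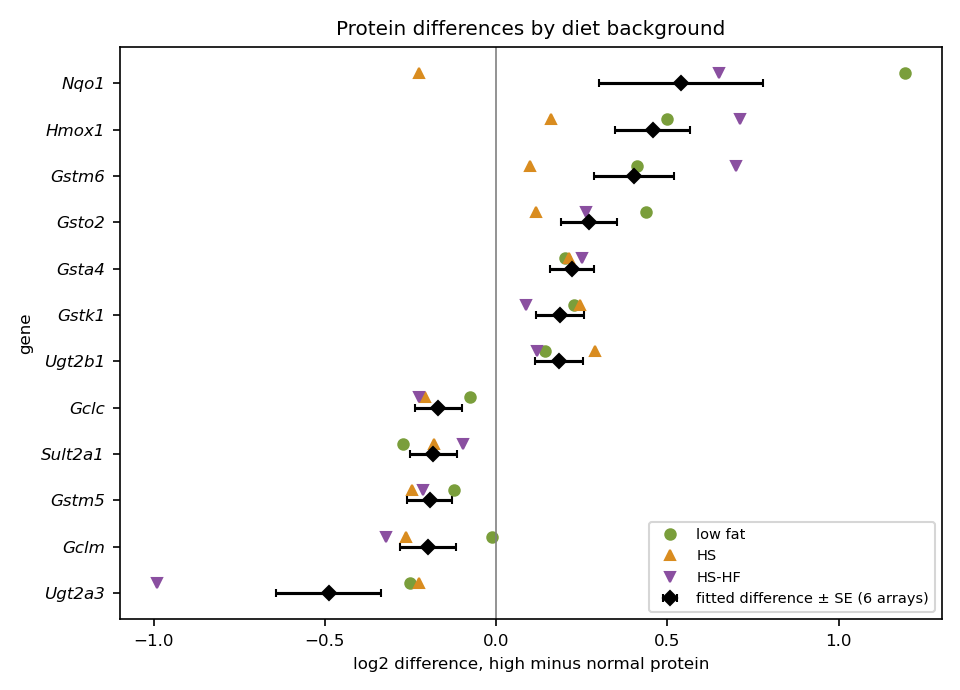
Log2 difference of high minus normal protein for 12 genes: coloured points are the 3 backgrounds (1 pair of arrays each), and diamonds with bars the fitted difference ± SE over 6 arrays. Shown are the 9 members with an unadjusted p under 0.05, Gstm6 as a description, Nqo1 and Gclm; none passed the adjusted test, and Nqo1 and Ugt2a3 spread most between backgrounds.

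The Ugt2 family, whose enzymes act on steroids, bile acids and many drugs, held the largest differences downward. Ugt2a3 had 9.10, 9.27 and 8.40 on the HP, HP-HS and HP-HS-HF arrays, against 9.35, 9.49 and 9.39 on the NP, NP-HS and NP-HS-HF arrays. Its difference was -0.25 on low fat, -0.22 on HS and -0.99 on HS-HF, where high protein was 1.99-fold lower. The fit gave -0.49 ± 0.154 (SE, adjusted p = 0.447), and -0.24 without either HS-HF array. For fat added to sucrose Ugt2a3 differed by -0.87 with high protein and by -0.11 with normal protein (fit -0.49 ± 0.189 SE, adjusted p = 0.985). The fitted fat difference was -0.11 without the HP-HS-HF array and -0.86 without the NP-HS-HF array.

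Ugt2b had 11.94, 11.93 and 11.43 on the HP, HP-HS and HP-HS-HF arrays, against 11.88, 11.85 and 12.08 on the NP, NP-HS and NP-HS-HF arrays. Again the HP-HS-HF array was lowest, 1.56-fold below NP-HS-HF, and the other 5 arrays lay close together. Sult1b1, a sulfotransferase of phenols and thyroid hormones, had 10.88, 10.99 and 10.64 on the HP, HP-HS and HP-HS-HF arrays, against 10.83, 10.86 and 10.97 on the NP, NP-HS and NP-HS-HF arrays, with a difference of -0.33 on HS-HF. Ugt2a3 and Ugt2b lay on HP-HS-HF at least 1.2-fold below each other array, as did 0.851 percent of all probe sets tested. Hmox1 and Nqo1 lay on that array at least 1.2-fold above each other array, as did 0.944 percent of all tested.

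Ugt2a3, Ugt2b and Sult1b1 lie in the same stretch of chromosome 14, where the tested members follow each other as Sult1b1, Ugt2a3, Ugt2b, Ugt2b37, Ugt2b35 and Ugt2b1. On HS-HF the differences in that order were -0.33, -0.99, -0.64, -0.21, -0.12 and 0.12. On low fat they were 0.04, -0.25, 0.05, 0.07, 0.17 and 0.14, and on HS 0.13, -0.22, 0.08, -0.29, -0.03 and 0.29. The stretch also holds genes that are no members. Among them, the probe set of Sult1e1 differed by 0.23 on HS-HF, and the one shared by Ugt2b15 and Ugt2b37 by -0.16. Ugt2b genes are near-identical copies in places, and how the probes part them was not tested.

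**Figure D4:**
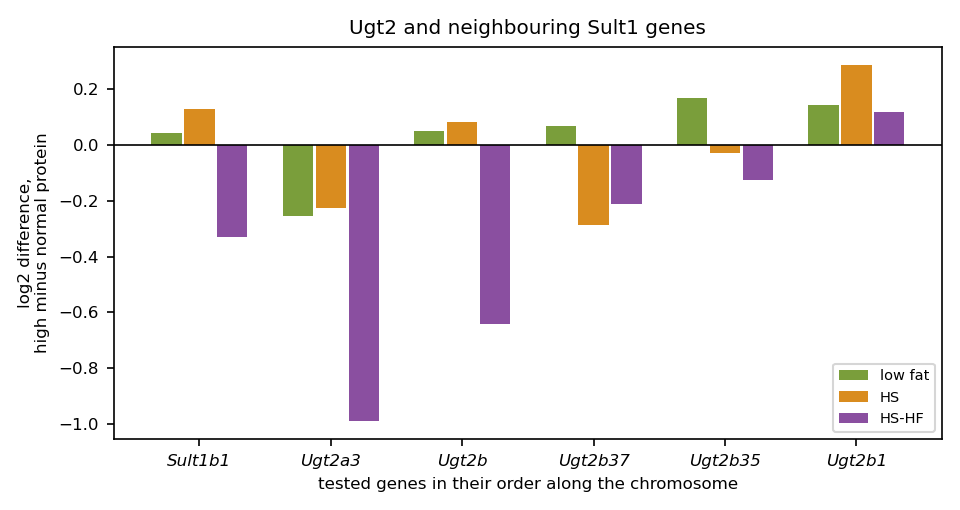
Log2 difference of high minus normal protein for the 6 tested Ugt2 and Sult1 genes of chromosome 14, in their order along it; bars are the 3 diet backgrounds, 1 pair of arrays each. On HS-HF Ugt2a3 (-0.99), Ugt2b (-0.64) and Sult1b1 (-0.33) lie lowest and Ugt2b1 (0.12) lies above 0.

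The promoters of Ugt2a3 and Ugt2b are printed as those of the neighbours that were lowest on HP-HS-HF. The windows are the 250 bases before the gene start, chr14:20851720-20851969 for Ugt2a3 and chr14:20985199-20985448 for Ugt2b, both on the plus strand (RefSeq, GRCr8). Capitals mark GTTAAT, a half-site of HNF1, a liver factor known to drive Ugt2b genes, searched on both strands.
Ugt2a3: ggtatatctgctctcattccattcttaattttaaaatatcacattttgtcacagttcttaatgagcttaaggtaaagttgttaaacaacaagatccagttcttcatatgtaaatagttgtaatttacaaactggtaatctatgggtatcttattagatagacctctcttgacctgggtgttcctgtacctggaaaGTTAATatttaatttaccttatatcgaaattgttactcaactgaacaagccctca
Ugt2b: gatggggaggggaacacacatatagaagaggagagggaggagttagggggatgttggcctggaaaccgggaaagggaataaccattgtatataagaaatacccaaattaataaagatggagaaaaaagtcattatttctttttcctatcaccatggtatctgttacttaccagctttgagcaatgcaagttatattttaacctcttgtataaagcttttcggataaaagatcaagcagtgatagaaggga
Ugt2a3 held the half-site once, starting at -55, and the Ugt2b window did not hold these letters. The half-site stood in 3 of the 36 member windows (8.33 percent), against 6.45 percent of all promoter windows.

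Ugt2b1 was lower with sucrose and fat than on low fat by a like amount at both protein levels. It had 9.71 on HP-HS-HF and 9.59 on NP-HS-HF, 10.03 on HP-HS and 9.74 on NP-HS, against 10.25 on HP and 10.10 on NP. Both HS-HF arrays were below both HS arrays, and these lay below both low fat arrays. Sucrose with fat against low fat differed by -0.54 with high protein and -0.52 with normal protein. The fit gave -0.53 ± 0.086 (SE, 2 pairs of arrays, adjusted p = 0.76), a moderated t that ranked 17th of the 20450 probe sets. The sucrose difference was -0.29 ± 0.086 (SE, adjusted p = 1) and the fat difference -0.24 ± 0.086 (SE, adjusted p = 0.965). These 3 comparisons share arrays and are not separate evidence. Ugt2b1 was also higher with high protein on each background, by 0.14, 0.29 and 0.12 on low fat, HS and HS-HF.

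Sult2a1, the hydroxysteroid sulfotransferase that acts on bile acids and dehydroepiandrosterone, was the sulfotransferase with the largest fitted protein difference below 0. Sult2a1 had 11.29, 11.12 and 11.16 on the HP, HP-HS and HP-HS-HF arrays, against 11.56, 11.30 and 11.26 on the NP, NP-HS and NP-HS-HF arrays. It was lower with high protein on each background (fit -0.18 ± 0.069 SE, adjusted p = 0.528), and the NP array was highest. The sucrose difference was -0.22 ± 0.085 (SE, adjusted p = 1). Sult5a1 differed by -0.21 ± 0.079 with sucrose (SE, adjusted p = 1), by -0.20 with high protein and -0.23 with normal protein. Sult1a1, the main phenol sulfotransferase, ranged over 0.14, and Sult2b1, which sulfates cholesterol, was at 0.20 ± 0.091 for sucrose (SE, adjusted p = 1), and at 0.10 without the HP array.

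**Figure D5:**
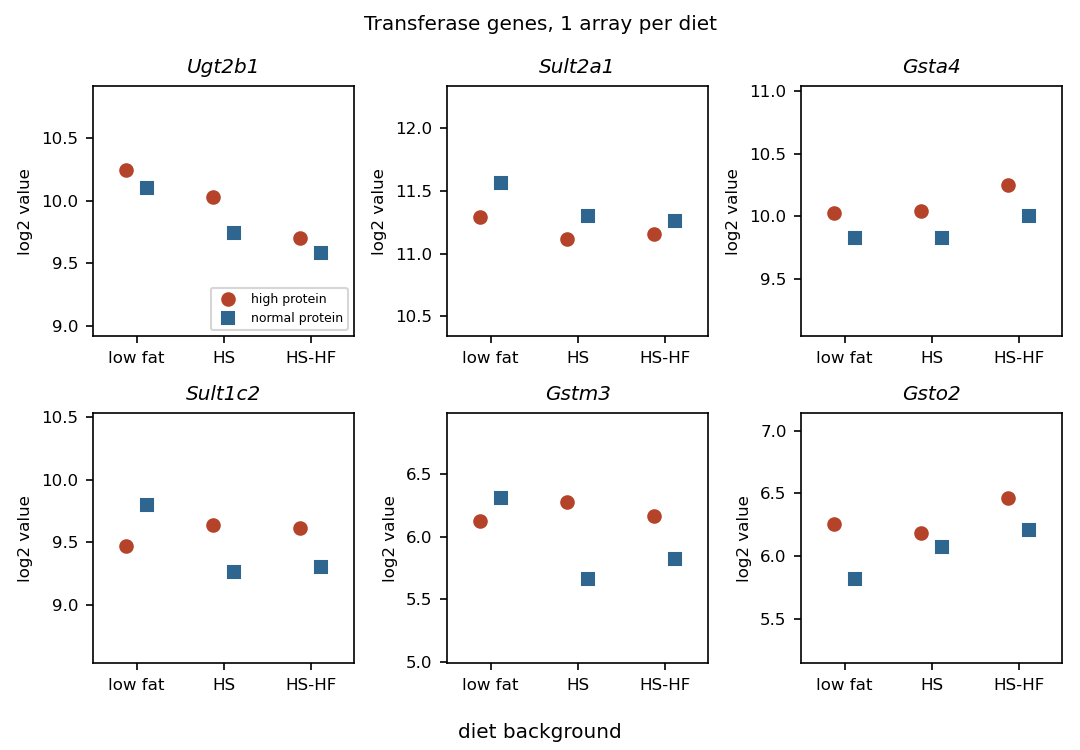
Log2 values of 6 transferase genes by diet background; circles are high protein and squares normal protein, 1 array each, and every panel spans 2 log2 units. Ugt2b1 is lower on HS and lower again on HS-HF at both protein levels, Gsta4 and Gsto2 are higher with high protein on all 3 backgrounds, and Sult1c2 and Gstm3 change order between low fat and the other backgrounds.

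The diet background comparisons can be read for the other members from the arrays of 1 protein level. With sucrose, Nqo1 was 1.67-fold lower with high protein (-0.74) and 1.6-fold higher with normal protein (0.68), so its fitted sucrose difference was -0.03 ± 0.294 (SE), and 0.55 without the HP-HS array. With fat added to sucrose, Nqo1 stood at 1.09 with high protein and 0.21 with normal protein (fit 0.65 ± 0.294 SE, adjusted p = 0.996), at 0.07 without the HP-HS array and at 1.22 without the NP-HS array. Hmox1 stood at 0.53 with high protein and 0.32 with normal protein for sucrose with fat against low fat (fit 0.43 ± 0.135 SE, adjusted p = 0.877), and at 0.24 without the HP-HS-HF array. On that comparison Gsto2 was at 0.30 ± 0.101 (SE, adjusted p = 0.877), or 0.18 without the NP array, and Gsta4 at 0.20 ± 0.078 (SE, adjusted p = 0.953). At 1.5-fold or more, fat added to sucrose with high protein gave 1 member higher, Nqo1 (background 0.68 percent), and 1 lower, Ugt2a3 (0.592 percent). With normal protein it gave 0 members either way (0.445 percent higher and 0.489 percent lower).

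Other genes of these pathways were counted from lists, and 0 of their members passed the test for any of the 4 effects. Of 16 genes that supply glutathione, UDP-glucuronate or PAPS, 15 were tested, and 7 had a fitted protein difference above 0 (median -0.01), where the background is 49.4 percent. Papss2, which makes PAPS, was at 0.39 ± 0.091 (SE, adjusted p = 0.291), and Ugdh, which makes UDP-glucuronate, at -0.28 ± 0.077 (SE, adjusted p = 0.387). Of 33 further antioxidant and NADPH genes named as NRF2 targets, 30 were tested, and 10 lay above 0 (median -0.05). Among them Aldh1a1, a retinaldehyde dehydrogenase, was at -1.10 ± 0.217 (SE, adjusted p = 0.209), the malic enzyme Me1 at -0.57 ± 0.075 (SE, adjusted p = 0.104) and the epoxide hydrolase Ephx1 at -0.23 ± 0.078 (SE, adjusted p = 0.474). Of 20 regulators, 19 were tested and 7 lay above 0 (median -0.06).

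Of the regulators, Nr1h4 had the lowest adjusted p for protein, with a difference of -0.26 ± 0.078 (SE, adjusted p = 0.423). Nr1i2, the gene of PXR, was at 0.18 ± 0.070 (SE, adjusted p = 0.546). Bach1, which represses Hmox1 at antioxidant response elements, was at 0.29 ± 0.092 (SE, adjusted p = 0.445) and Ahr, the aryl hydrocarbon receptor, at -0.30 ± 0.115 (SE, adjusted p = 0.531). Ahr was at -0.14 without either HS-HF array. Nfe2l2 itself, named after its values were seen, had 10.00, 9.80 and 9.95 on the HP, HP-HS and HP-HS-HF arrays, against 10.02, 10.19 and 10.17 on the NP, NP-HS and NP-HS-HF arrays. Its fitted difference was -0.21 ± 0.086 (SE, adjusted p = 0.567), or -0.12 without either HS array, and NRF2 is known to be controlled mainly at the protein level, which arrays do not measure. The 16 genes listed for oxidation were cytochromes P450 together with Por and Alas1. All 16 were tested and 10 lay above 0 (median 0.09). Cyp7b1, an oxysterol hydroxylase, was at 0.99 ± 0.098 (SE, adjusted p = 0.0594), and passed with an intensity trend, with arrays centred on their median, with a stricter filter and without either HS-HF array. Cyp2b2, a classic target of CAR, was at -0.97 ± 0.190 (SE, adjusted p = 0.209). Of 14 genes of acetyl, methyl and amino acid conjugation, 9 were tested and 5 lay above 0 (median 0.01). The methyltransferases Inmt and Nnmt were at 0.53 ± 0.069 (SE, adjusted p = 0.094) and 0.53 ± 0.072 (SE, adjusted p = 0.11). With an intensity trend in limma both passed, with adjusted p = 0.0351 for Inmt and 0.039 for Nnmt.

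For markers of cells and zones, 0 passed the protein test, and the background above 0 is 49.4 percent. Of 10 tested pericentral genes, the zone in which many drug-metabolising enzymes are highest, 9 lay above 0 (median 0.25). Their sums were 18978 to 21710 in the high protein arrays and 16420 to 18386 in the normal protein arrays. The genes were uneven: Slc1a4 (1.53) and Slc1a2 (0.93) stood highest, and Cyp1a2 (0.11), Axin2 (0.09), Cyp2e1 (0.08) and Lgr5 (-0.06) lay near 0. Of 10 periportal genes 7 lay above 0 (median 0.20), with sums of 36029 to 37678 and 32162 to 33967 for high and normal protein. Sds (0.50) and Asl (0.49) stood highest, and Hsd17b13 (-0.30), Ctsc (-0.10) and Cdh1 (-0.03) lay below 0. Of 8 bile duct markers, 5 were tested and 5 lay above 0 (median 0.09), with Cftr and Prom1 below the threshold. Of 10 tested stellate and endothelial markers 8 lay above 0 (median 0.03), and of 9 hepatocyte markers 4 (median 0.00). Of the 5 gut, kidney and pancreas markers tested, 2 lay above 0 (median -0.02). The part of zones or cell types in the members' differences was not tested.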

How the data were processed

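Total liver RNA was extracted with TRIzol, purified, pooled from 5 rats per diet (1500 ng per rat), and 100 ng was labelled for Affymetrix whole-transcript arrays, per the labels' protocols. The deposited log2 values were summarised by RMA, per the submitters' processing notes, with version and settings not given in the sources used here. Of 29214 probe sets, 15310 had 1 gene in the platform annotation, 323 had several, and the annotation at hand does not list 13581, which stay unnamed. Where a gene had more than 1 probe set, that of highest mean stood for it. All 43 members matched RefSeq (GRCr8) by Entrez number, with 0 symbols changed.

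From these values, limma 3.58.1 in R 4.3.3 fitted protein level and diet background as additive terms over the 6 arrays (2 residual degrees of freedom, prior 4.37), on the 20450 probe sets above the 30th percentile of the mean, and adjusted over all of them. The interaction cannot be fitted. SE is from this fit. The model was tested on simulated data. The members and the 12 lists were chosen with earlier results of these data known. Named were the 6 antioxidant genes, up to 4 members per family by range, 6 per effect by moderated t, 3 each way per pair of arrays, and up to 4 per pathway list by moderated t, of which a part is given. Alternatives were 2 other filters, quantile and median scaling, an intensity trend, an ordinary t statistic, averaged probe sets, 4-array fits, and leaving out each array. Diet composition is not used here.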

Additional observations from a re-analysis of the deposited data

Results flagged for a closer look

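For 2 members the difference between diets ran in opposite directions at the levels of the other factor, by 1.2-fold or more each way. Each direction rests on 1 pair of arrays, and the difference between them was not tested. Sucrose differed for Nqo1 by -0.74 with high protein and by 0.68 with normal protein. Protein differed for Sult1c2 by -0.33 on low fat, by 0.37 on HS and by 0.32 on HS-HF. The HS and HS-HF values of Sult1c2 are each compared with the same low fat value. Of the probe sets shared by Sult1c2 and a close copy, the dimmer differed by -0.31, 0.36 and 0.10 on low fat, HS and HS-HF. The brighter differed by -0.12, 0.29 and 0.05, so on HS-HF both were nearer to 0 than the probe set of Sult1c2 alone.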

How the results depend on the processing

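Over all alternatives, 0 members passed the test for any effect. Of 689 repeats of 52 fitted differences, 674 kept their sign and their side of the threshold. Many of these repeats could not change the sign. Another filter, an intensity trend or an ordinary t statistic leaves the fitted difference as it was. None of the 52 passed in the main fit, so keeping their side means that they again did not pass. With 1 array left out, 8 changed sign. The sucrose difference of Nqo1 lay between -0.60 (without NP-HS) and 0.55 (without HP-HS; 0.46 without HP). That of Gstm3 lay between -0.58 and 0.079 (without NP; 0.015 without NP-HS). The protein difference of Gsta3 lay between -0.12 and 0.0050 (without either HS-HF array), and that of Gsto1 between -0.0039 (without either low fat array) and 0.096. For protein, 7 repeats of 3 genes that are no members passed: Inmt and Nnmt with an intensity trend, and Cyp7b1 under 5 settings. The size was less stable for Nqo1, whose protein difference lay between 0.21 and 0.92, and for Ugt2a3, between -0.62 and -0.24. That of Gsta4 lay between 0.21 and 0.23, and Ugt2b1 for sucrose with fat between -0.58 and -0.48. Counts over all probe sets moved more. The protein count of 9 was 3 with no filter, 16 with arrays centred on their median, 51 with an intensity trend and 0 with an ordinary t statistic. It was 0 to 48 with 1 array left out (0 without any low fat or HS array, 48 without either HS-HF array). The sucrose count of 0 was 3 with the 4 arrays of the contrast and 0 to 3 with 1 array left out, the highest without either HS-HF array. With 1 array left out the fat count was 0 to 17, the highest without NP-HS-HF, and the sucrose with fat count 0 to 12, the highest also without NP-HS-HF. The cause was not tested. No paired analysis by rat was possible, because each diet had its own rats in a single pool. The additive fit already compares protein levels within each background. The number of arrays limits the precision of every value.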

Other observations

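Probe sets that the annotation gives to several genes were outside the count, and 8 of them include a gene of these families. The probe set listed for 8 genes of the Ugt1 family, which act on bilirubin, phenols and drugs and share the end of their transcripts, had 9.65, 9.63 and 9.76 on the HP, HP-HS and HP-HS-HF arrays, against 9.84, 9.79 and 9.79 on the NP, NP-HS and NP-HS-HF arrays. Every high protein array was below every normal protein array, with differences of -0.19 on low fat, -0.16 on HS and -0.02 on HS-HF. The brighter of the 2 probe sets shared by Gsta2 and Gsta5 differed by -0.14, -0.11 and 0.06 on low fat, HS and HS-HF, unlike Gsta4.

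Of the probe sets shared by Sult1c2 and a close copy, the dimmer had 9.47, 9.60 and 9.60 on the HP, HP-HS and HP-HS-HF arrays, against 9.78, 9.24 and 9.50 on the NP, NP-HS and NP-HS-HF arrays. It was highest on NP and lowest on NP-HS, as was the probe set of Sult1c2 alone, but its protein difference on HS-HF was smaller (0.10). The brighter of these probe sets differed by -0.12 on low fat, 0.29 on HS and 0.05 on HS-HF. The probe set shared by Sult2a2 and Sult2a6 was also highest on NP (9.09) and lowest on NP-HS (8.11), with protein differences of -0.52 on low fat, 0.38 on HS and -0.03 on HS-HF. The probe set of Sult1e1, the oestrogen sulfotransferase, listed under several gene numbers, differed by 0.05, 0.09 and 0.23 on low fat, HS and HS-HF. These values have no test.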
